A study of Mus musculus with 70 samples.

Results

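The complement genes C1qa, C1qb, C1qc, C4b, C3 and Serping1 were followed by name in the hippocampus of APP23 mice, and all 6 were found among the 14260 genes measured. RNA came from the hippocampus of one hemibrain of each of 69 mice, 37 of them transgenic (TG) and 32 non-transgenic littermates (NTG). The TG mice carry the Thy1-APP transgene of the strain B6.Cg-Tg(Thy1-APP)3Somm/J, that is, mutated human APP under the Thy1 promoter, which is active in neurons, and serve as a model of amyloid deposition. Each genotype was either fed ad libitum (ALF) or given food for 6 h a day, from Zeitgeber time (ZT) 15 to ZT21, called time-restricted feeding (TRF). The light phase opens at ZT0 and ends at ZT12. The animals were 6 to 9 months old when TRF started and 10 to 13 months old at sacrifice, which took place at one of 4 times. NTG on ALF held 16 animals, 7 of ZT0, 1 of ZT6, 6 of ZT12 and 2 of ZT18. In the same order of times, NTG on TRF held 16 animals (6, 2, 6 and 2), TG on ALF 19 animals (6, 4, 6 and 3) and TG on TRF 18 animals (6, 4, 5 and 3). The sex of single animals is not given in the labels.

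Complement is a cascade of plasma and tissue proteins that tags surfaces and immune complexes for removal. In the classical pathway the C1q molecule, built from the products of C1qa, C1qb and C1qc, binds a target, its proteases C1r and C1s cleave C4 and C2, and the convertase so formed cleaves C3, whose fragments are read by receptors on phagocytes. In the brain, C1q is made mainly by microglia, C4 largely by glia, and complement proteins are known for tagging synapses and for gathering at amyloid plaques. Serping1 encodes the C1 inhibitor, which blocks C1r and C1s.

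The authors' values are normalized counts, that is, reads per gene divided by one factor per library. Each library held an estimated 27.9 to 47.1 M reads in genes of the table, and the 6 genes were counted with 49 (C3) to 6663 (C4b) reads in the libraries where they were lowest and highest. Reads of Thy1, whose promoter drives the transgene, ran from 14727 to 29068 normalized counts in NTG and from 101986 to 171318 in TG, so no animal went against its genotype label by this gene. Markers of neurons (9 of 9), hippocampal subfields (11 of 11), astrocytes (13 of 13), oligodendrocytes (12 of 12) and microglia (17 of 18) were measured, which are the cells of the labelled tissue. The summed level of 15 choroid plexus genes ran from 1251 to 240644 normalized counts over all animals, and its ranges overlapped between the 4 groups. Its median was 33664 in NTG on ALF, 107048 in NTG on TRF, 131377 in TG on ALF and 93050 in TG on TRF. On ALF all 15 of these genes had values above 0 in TG, with a median of 1.85 and none passing. Of the 15, 12 had an unadjusted p under 0.05 in limma, beside 1041 of all 14260 genes. The 5 animals with the lowest median correlation with the others were NTG_ALF_1, NTG_ALF_107, TG_ALF_5 and TG_ALF_16, all at ZT0, and TG_TRF_104 at ZT12. In the 4 ALF animals the balance of short and long transcripts stood apart, while TG_TRF_104 was the highest but lay close to TG_TRF_307 (-0.96). This balance was taken as the mean log2 level of the shortest 20% of genes by exon length minus that of the longest 20%. It was -2.58 to -2.17 in the 4 ALF animals and -0.93 in TG_TRF_104, against -1.83 to -0.96 in the other 64 animals. Values are also given without the 5 animals of lowest correlation where that matters. The labels number the animals, and p-values measure the spread between them. Libraries NTG_TRF_232 and NTG_TRF_232R share a number and were averaged as 1 animal.

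Per kilobase of exon, C1qa stood highest of the 6 genes, with 1689 ± 331.3 normalized counts per kb (SD, n = 69). C1qc followed with 1141 ± 216, C4b with 612 ± 143 and C1qb with 467 ± 105. Serping1 reached 164 ± 50.05 and C3 33.7 ± 15.0 normalized counts per kb. In this order the spreads (mean ± SD) of C4b and C1qb overlap, and those of C1qa and C1qc all but meet. C3, the protein on which all pathways meet, was the lowest of the 6 on this scale.

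In GRCm38 the 3 C1q genes lie side by side on the minus strand of chromosome 4 within 18675 bases, C1qb at chr4:136880129-136886187, C1qc at chr4:136889804-136893065 and C1qa at chr4:136895917-136898803. C3 (chr17:57203970-57228136), C4b (chr17:34728380-34743882) and Serping1 (chr2:84765387-84775444) are also on the minus strand. The 250 bases before the gene start are shown from RefSeq (GRCm38.p6) for C1qb, C1qc and C3. These were the only 3 of the 6 genes in the promoter set used. Capitals mark matches, on either strand, to GAGGAA (a PU-box core, bound by the myeloid factor PU.1) and to TTNNGNAA (a core bound by C/EBP factors, which act at many inflammatory genes). They are chr4:136886201-136886450 for C1qb, chr4:136892915-136893164 for C1qc and chr17:57228137-57228386 for C3, read on the minus strand. The RefSeq start of C1qc lies inside the gene as GENCODE draws it, so its window overlaps the interval given above.
C1qb: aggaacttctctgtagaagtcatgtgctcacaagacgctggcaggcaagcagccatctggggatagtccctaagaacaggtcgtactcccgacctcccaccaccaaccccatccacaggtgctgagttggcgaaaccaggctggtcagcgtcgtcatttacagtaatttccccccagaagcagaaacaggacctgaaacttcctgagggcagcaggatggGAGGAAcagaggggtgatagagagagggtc
C1qc: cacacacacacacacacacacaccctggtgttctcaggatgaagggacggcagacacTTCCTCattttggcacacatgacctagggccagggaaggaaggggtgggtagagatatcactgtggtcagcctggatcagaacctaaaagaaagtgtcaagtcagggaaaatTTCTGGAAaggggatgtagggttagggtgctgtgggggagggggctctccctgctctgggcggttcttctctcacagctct
C3: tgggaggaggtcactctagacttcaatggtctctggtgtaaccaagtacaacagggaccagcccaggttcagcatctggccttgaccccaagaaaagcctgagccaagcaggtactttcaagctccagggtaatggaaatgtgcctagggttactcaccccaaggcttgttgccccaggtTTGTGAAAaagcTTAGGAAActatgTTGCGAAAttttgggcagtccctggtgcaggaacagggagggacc
The C1qb window held 1 GAGGAA, starting 30 bases before the start of the gene, and no TTNNGNAA. The C1qc window held 1 GAGGAA, read on the opposite strand (TTCCTC) from position -193, and 1 TTNNGNAA at -81. The C3 window held no GAGGAA and 3 TTNNGNAA, at -70, -58 and -45. The clock E-box CACGTG was in none of the 3 windows. Of 32851 promoters of this length, 23.3% held GAGGAA, 36.8% TTNNGNAA and 6.02% CACGTG. These are matches of letters and no evidence of binding.

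The plot of levels shows every animal by group and time.

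**Figure D1:**
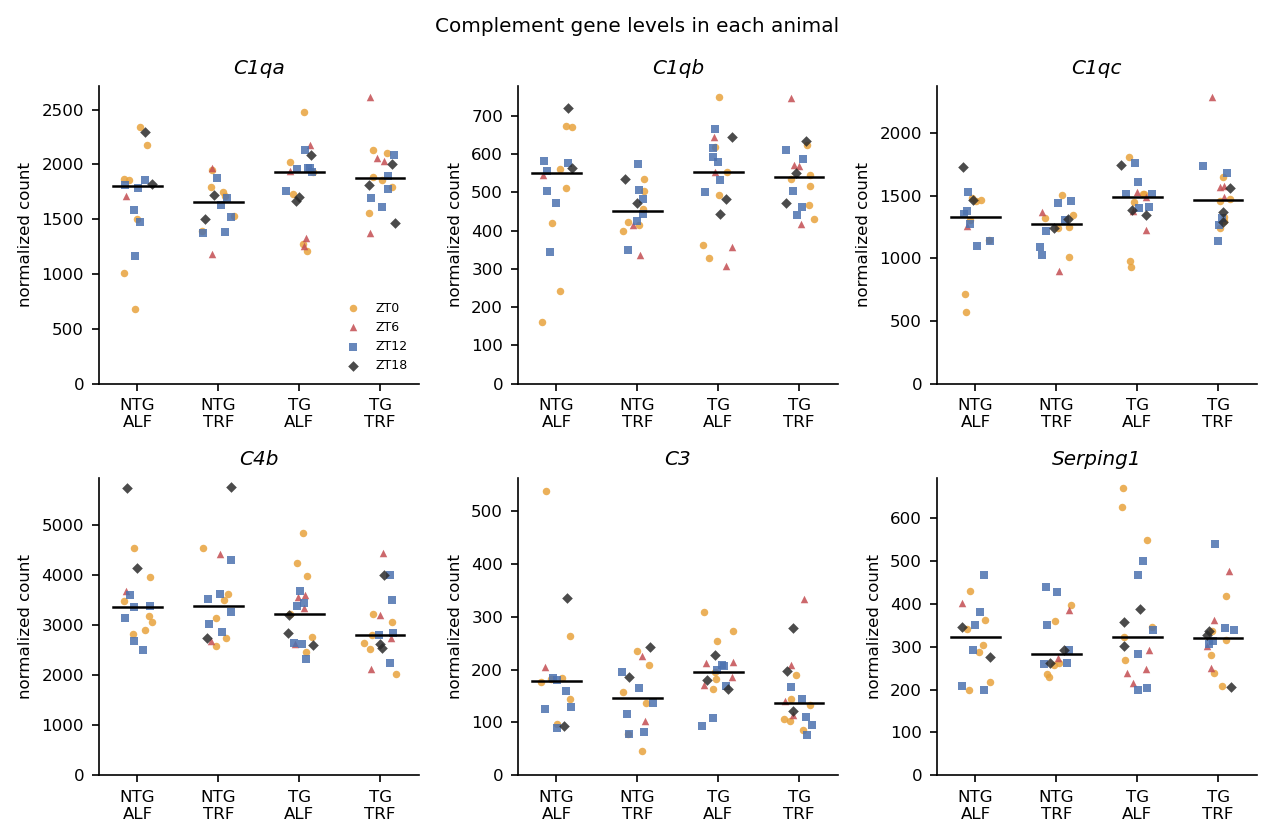
Normalized count (linear axis from 0) of the 6 complement genes in each of 69 animals, by genotype and feeding, with colour and shape for the time of sacrifice and a black line at the group median. The groups overlap for all 6 genes, and the low C1q points in NTG on ALF at ZT0 are NTG_ALF_107 and NTG_ALF_1.

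The first question was whether the amyloid-bearing genotype carries more complement RNA. C1qc, the C chain of C1q, ran from 570 through a median of 1307 to 1728 normalized counts in NTG and from 928 through 1472 to 2292 in TG. C1qa, the A chain, ran from 677 through 1713 to 2343 in NTG and from 1207 through 1892 to 2619 in TG. C1qb, the B chain, ran from 162 through 493 to 719 in NTG and from 308.05 through 544 to 749 in TG. The medians of all 3 chains were higher in TG, while the ranges of the genotypes overlapped over most of their length.

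On the log2 scale, with the time of sacrifice in the model, the difference of TG from NTG over both feedings was 0.22 ± 0.07 (SE) for C1qc, which is 1.16-fold with a 95% interval of 1.06 to 1.27. It was 0.17 ± 0.08 for C1qa (1.13-fold, 1.02 to 1.25) and 0.18 ± 0.09 for C1qb (1.13-fold, 1.0008 to 1.275). None of the 6 complement genes passed limma's threshold of 0.05 after Benjamini-Hochberg adjustment over all genes, beside 0.449% of all genes that did. By unadjusted p, 4 of the 6 were under 0.05 in limma, beside 1157 of all 14260 genes. With voom weights 3 of the 6 were, with none passing after adjustment there either. The adjusted limma p was 0.184 for C1qc, 0.504 for C1qa and 0.614 for C1qb. C4b, the mouse C4 gene of the complement cascade, stood lower in TG, at -0.20 ± 0.07 (0.872-fold, 0.787 to 0.966; adjusted limma p 0.369). Its levels ran from 2496 through 3366 to 5759 normalized counts in NTG and from 2025 through 2837 to 4840 in TG. The gap in C4b means was widest at ZT18, with 2 NTG animals on each feeding. There NTG stood at 4939 (ALF) and 4249 (TRF), and TG at 2882 and 3048. At ZT0 the TG mean was higher on ALF (3579 against 3417) and lower on TRF (2710 against 3349). At ZT12 the TG mean was lower on ALF (3010 against 3110) and on TRF (3078 against 3432). C3 (0.05 ± 0.14) and Serping1 (0.12 ± 0.10) had intervals that span 0.

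By feeding, none of the 6 passed on ALF, where 0.189% of all genes passed in limma, or on TRF, where 0.133% did. The number with an unadjusted p under 0.05 in limma was 1 on ALF and 3 on TRF, beside 1041 and 989 of all 14260 genes. With voom weights it was 0 and 2 of the 6. C1qc was 0.20 ± 0.09 higher in TG on ALF and 0.23 ± 0.10 on TRF on the log2 scale. C1qa stood at 0.14 ± 0.11 and 0.20 ± 0.11, C1qb at 0.11 ± 0.12 and 0.25 ± 0.12, and C4b at -0.13 ± 0.10 and -0.26 ± 0.10. With all times fitted together, the 3 C1q genes thus had values above 0 and C4b a value below 0 on each feeding. The interaction of genotype and feeding passed for no gene of the table (0% by limma). None of the 6 genes had an unadjusted p under 0.05 for it in limma, beside 745 of all 14260 genes, or with voom weights. Its value was 0.06 ± 0.15 for C1qa, 0.14 ± 0.17 for C1qb, 0.04 ± 0.13 for C1qc, -0.13 ± 0.15 for C4b, -0.08 ± 0.27 for C3 and -0.08 ± 0.20 for Serping1.

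At the times with most animals the C1qc difference was 0.21 ± 0.11 (ZT0) and 0.21 ± 0.12 (ZT12). Without the 5 animals of lowest correlation it was 0.18 ± 0.05 over both feedings (adjusted limma p 0.0658). With the balance of short and long transcripts as a covariate, an alternative chosen after seeing the data, it was 0.15 ± 0.04 and passed (adjusted limma p 0.0206). Without the same 5 animals the C4b difference over both feedings was -0.12 ± 0.13 at ZT0 and -0.06 ± 0.13 at ZT12. With all times of an alternative fitted together, it ran from -0.22 to -0.13 over the 16 alternatives. With the level of 17 microglial genes as a covariate C1qc stood at 0.09, C1qa at 0.04 and C1qb at 0.03. The microglial list itself, which held none of the 6 genes, had 16 of 17 genes with values above 0 in TG and a median of 0.09, and none of them passed. Its summed level ran from 17615 to 24530 normalized counts in NTG and from 17917 to 25561 in TG. In bulk RNA, more cells of a type and more RNA per cell cannot be told apart.

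**Figure D2:**
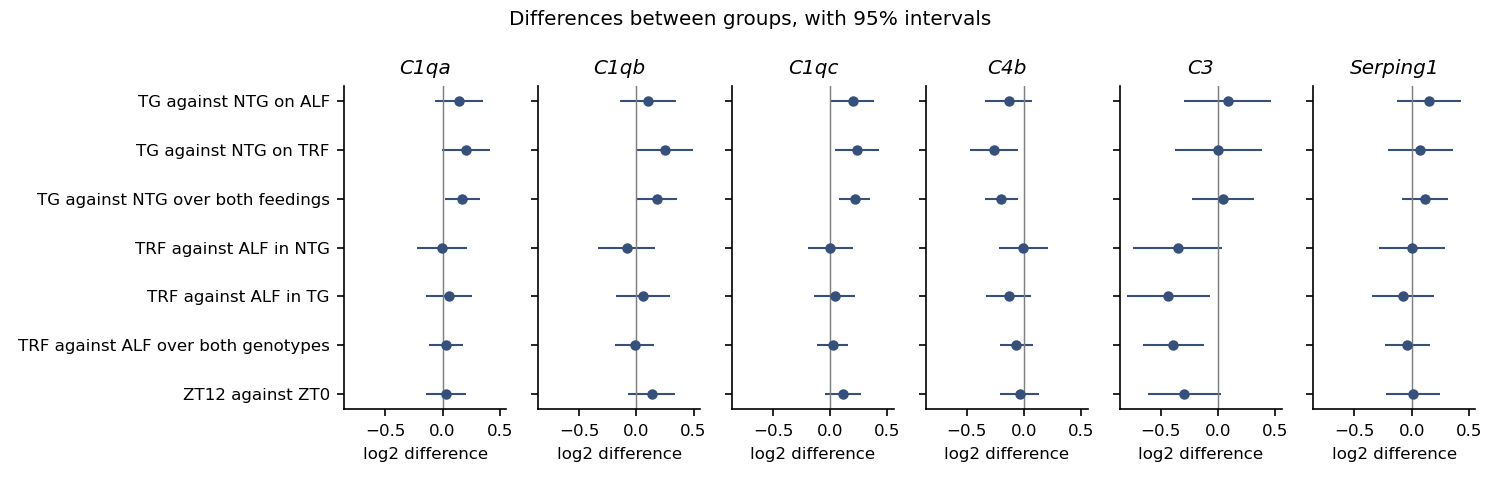
Log2 difference (points) with its 95% interval (bars) for the 6 complement genes in 7 comparisons of the additive limma model over 69 animals. The intervals of the 3 C1q genes lie above 0 and the C4b interval below 0 for TG against NTG over both feedings, and the C3 interval below 0 for TRF against ALF over both genotypes, yet none passed after adjustment over all genes.

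The second question was whether restricting food to the active phase changes complement RNA. C3, the central component, was the gene of the 6 with the largest difference. It ran from 88.2 through a median of 182 to 539 normalized counts on ALF (35 animals) and from 44.9 through 139 to 334 on TRF (34 animals). The ranges overlapped, with the lowest animal on TRF and the highest on ALF. Over both genotypes the log2 difference of TRF from ALF was -0.39 ± 0.13, or 0.762-fold with an interval of 0.634 to 0.917. It was -0.43 ± 0.18 in TG (adjusted limma p 0.219) and -0.35 ± 0.20 in NTG (adjusted limma p 0.746). Over both genotypes its unadjusted p was 0.0046 and its adjusted limma p 0.103, and C3 did not pass.

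None of the 6 passed over both genotypes, where 1.68% of all genes passed in limma, nor in TG (0.54%) nor in NTG (0.0281%). C3 was the only one of the 6 with an unadjusted p under 0.05 over both genotypes and in TG, in limma and with voom weights, and in NTG there was none in either. Of all 14260 genes, 2573 had such a p in limma over both genotypes, 2433 in TG and 1065 in NTG. The other 5 genes lay between -0.07 (C4b) and 0.03 (C1qa) over both genotypes. With the 5 animals of lowest correlation left out, C1qa (-0.0874), C1qb (-0.15) and C1qc (-0.0883) all lay below 0, and C1qb at ZT0 went from 0.09 ± 0.15 to -0.26 ± 0.11 (adjusted limma p 0.591). Over all animals the 95% interval of the fold ran from 0.918 to 1.13 for C1qa, from 0.879 to 1.12 for C1qb and from 0.926 to 1.11 for C1qc.

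The C3 values by time are in the plot of C3. At ZT0, TG animals on ALF ran from 163 through 225 to 308.8 normalized counts and those on TRF from 86.1 through 120 to 190. NTG animals at ZT0 ran from 96.1 through 182 to 539 on ALF and from 44.9 through 147 to 235 on TRF. In both genotypes the median was lower on TRF and the ranges overlapped. At ZT0 the log2 difference over both genotypes was -0.76 ± 0.23 (adjusted limma p 0.120, beside 0.0491% of all genes that passed). At ZT12 it was -0.33 ± 0.24. The change of C3 from ZT0 to ZT12 differed between TRF and ALF by 0.43 ± 0.33, with an unadjusted p of 0.192 in limma, so the feeding difference was not shown to vary with time.

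Single animals weighed on the C3 value. Without NTG_ALF_1, which held the highest C3, the ZT0 difference in NTG went from -0.66 ± 0.32 to -0.42 ± 0.31, and over both genotypes to -0.64 ± 0.22. Over all times, leaving out each animal in turn moved the C3 difference between -0.44 and -0.33, and its adjusted limma p between 0.0514 and 0.173. Leaving out the 5 animals of lowest correlation, the difference was -0.29 ± 0.13 (adjusted limma p 0.400). At ZT0 it was then -0.57 ± 0.24 (adjusted limma p 0.591). Genes of oligodendrocytes moved the same way. All 12 of their marker genes had values below 0 on TRF over both genotypes, with a median of -0.11, and 4 passed. Their summed level ran from 163339 to 421431 normalized counts on ALF and from 161415 to 249130 on TRF. Its median was 223990 on ALF and 226420 on TRF in NTG, and 225221 on ALF and 212918 on TRF in TG. With the oligodendrocyte level as a covariate, chosen after seeing the data, C3 stood at -0.21 ± 0.13 (adjusted limma p 0.348). Over all 16 alternatives the C3 difference ran from -0.55 to -0.21, and it passed only with the microglia covariate (adjusted limma p 0.0332).

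**Figure D3:**
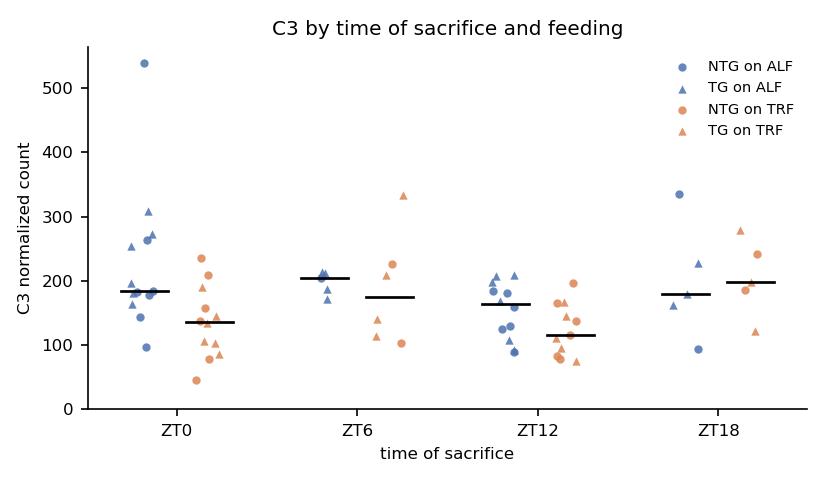
C3 normalized count (linear axis from 0) by time of sacrifice, with ALF in blue and TRF in orange, circles for NTG, triangles for TG and black lines at the median of each feeding and time. The TRF median is below the ALF median at ZT0 (134.96 against 184), ZT6 (175 against 204.001) and ZT12 (114.8 against 164) and above it at ZT18 (197 against 180), where 5 animals stand on each side.

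The third question was whether complement RNA follows the time of day. For C3 the mean was 183.4 normalized counts among animals of ZT0, 192.3 among ZT6, 139.7 among ZT12 and 202.4 among ZT18, and the fitted times spanned 0.52 on the log2 scale (limma F test, adjusted p 0.0848). For the other 5 genes the fitted times spanned 0.07 (C1qa) to 0.21 (C1qb), and their adjusted limma p ran from 0.405 to 0.940. None of the 6 passed this F test, beside 35.6% of all genes. Of the 6, 1 had an unadjusted p under 0.05 in limma, beside 6816 of all 14260 genes, and none with voom weights. From ZT0 to ZT12, 27.9% of all genes passed in limma and again none of the 6. None of the 6 had an unadjusted p under 0.05 in limma, beside 5657 of all 14260 genes, or with voom weights. C3 was -0.29 ± 0.16 at ZT12 against ZT0, C4b -0.04 ± 0.09, C1qa 0.03 ± 0.09, C1qb 0.13 ± 0.10, C1qc 0.11 ± 0.08 and Serping1 0.01 ± 0.12. With the 5 animals of lowest correlation left out, the C1q values turned to -0.13 (C1qa), -0.05 (C1qb) and -0.04 (C1qc), and C3 stood at -0.15. All 21 animals of ZT6 and ZT18 carry numbers in the 300s, as do 2 of 25 animals at ZT0 and 1 of 23 at ZT12. With the number series as a factor the fitted times of C3 spanned 0.81 (adjusted limma p 0.191), which rests on those 3 animals to set the series apart from the times.

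Serping1, the C1 inhibitor, is given at ZT0 and at ZT12, since its TRF difference in TG was not alike in sign at the 2 times. At ZT0 it ran from 199 through 303.2 to 430.1 normalized counts in NTG on ALF and from 269 through 449 to 672 in TG on ALF. On TRF at ZT0 it ran from 229 through 260 to 398 in NTG and from 209 through 298 to 418 in TG. The 3 highest animals of TG on ALF (550.0, 628 and 672) lay above every other animal at ZT0, and the second of them, TG_ALF_16, is among the 5 of lowest correlation. Without those 5 the TG difference on ALF at ZT0 was 0.61 ± 0.27 (adjusted limma p 0.842). The TG difference on ALF at ZT0 was 0.56 ± 0.22 on the log2 scale (adjusted limma p 0.544, beside 0.0351% of all genes that passed) and on TRF 0.04 ± 0.23. In TG at ZT0 the TRF difference was -0.58 ± 0.23 (adjusted limma p 0.574, beside 0% of all genes). At ZT12 the TG difference on ALF was 0.05 ± 0.23 and the TRF difference in TG 0.21 ± 0.24, with medians of 311 in TG on ALF and 339 in TG on TRF. None of these passed, and the interaction of genotype and feeding at ZT0 (-0.52 ± 0.31) did not pass (0% of all genes). Choroid plexus genes stood apart in the same comparison, with 15 of 15 above 0 in TG on ALF at ZT0 and a median of 2.42. Of these 15, 2 had an unadjusted p under 0.05 in limma, beside 1026 of all 14260 genes, and none passed. The part of choroid plexus genes in the Serping1 value at ZT0 was not tested. Serping1 varied with meningeal and fibroblast genes, whose summed level over 15 genes ran from 7641 to 23392 normalized counts in TG on ALF, 7226 to 16967 in NTG on ALF, 7554 to 16579 in NTG on TRF and 7776 to 17798 in TG on TRF. With their level as a covariate the TG difference of Serping1 on ALF over all times went from 0.15 ± 0.14 to -0.07 ± 0.08.

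C4b and C4a are near copies, so reads may be shared between them. Their longest transcripts agree at 96.14% of 5367 aligned bases, with a longest identical run of 433 bases, which exceeds the read length of 150. C4a, the sex-limited isotype, was listed at 0.367 to 4.17% (median 2.24%) of the sum of both. Its level did not follow that of C4b between animals (r = 0.03). How shared reads were counted is not given in the sources used here. The C4b value may therefore hold C4a reads or lack shared reads, to an unknown extent.

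The 6 genes varied more between animals than most genes. After removing the mean of each group and time, the SD on the log2 scale was 0.33 for C1qa, 0.38 for C1qb, 0.28 for C1qc, 0.31 for C4b, 0.41 for Serping1 and 0.59 for C3, against a median of 0.21 over all genes. Among 501 genes of like level these SDs lay at percentiles 96.2, 92.8, 90.4, 94.4, 87.4 and 94.4 in the same order of genes.

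Among the 6 genes themselves this variation fell into a C1q group, a pair and Serping1. The C1q chains varied together, with Pearson's r of 0.95 for C1qa and C1qb (Spearman's rho 0.90), 0.89 for C1qa and C1qc (0.86) and 0.86 for C1qb and C1qc (0.80) over 69 animals. C3 and C4b formed a second pair with r = 0.60 (rho 0.65). In each of these 4 pairs the 2-sided permutation p was 1e-05, the smallest that 100000 resamples can give, and 3.7e-05 after Benjamini-Hochberg adjustment over 15 pairs. Serping1 went with none of the other genes, and the remaining 11 pairs had r between -0.21 and 0.20 with adjusted permutation p of 0.23 or more. Without the 2 animals farthest from the median the 4 values were 0.92, 0.86, 0.80 and 0.61. Animals carry numbers under 100 (15), in the 100s (23), 200s (7) or 300s (24), which may mark series. Within these series r ran from 0.85 to 0.97 for C1qa and C1qb, from 0.75 to 0.94 for C1qa and C1qc, from 0.69 to 0.95 for C1qb and C1qc, and from 0.24 (the 7 animals of the 200s) to 0.75 for C3 and C4b. Without the 5 animals of lowest correlation the 4 values were 0.91, 0.82, 0.76 and 0.58.

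The level of other genes moved with the 6 as well. C1qa, C1qb and C1qc followed the balance of short and long transcripts with r = 0.80, 0.77 and 0.87, and the level of 17 microglial genes with r = 0.71, 0.67 and 0.73. The part of either in the genotype values was not tested beyond the covariates above. The same correlations were 0.69, 0.62 and 0.77 for the balance and 0.60, 0.53 and 0.63 for microglia without the 5 animals. Once the balance was removed from both genes of a pair, C1qa and C1qb kept r = 0.86, C1qa and C1qc 0.67, C1qb and C1qc 0.61 and C3 and C4b 0.57. Serping1 followed the meningeal and fibroblast genes (r = 0.80, rho 0.79) and C3 the oligodendrocyte genes (r = 0.55, rho 0.48), and C4b went weakly against the balance (r = -0.34). Weaker relations crossed these groups. C3 went with the meningeal genes at r = 0.36 (adjusted permutation p 0.0073), and C4b with the oligodendrocyte genes at 0.33 (0.010). C1qa, C1qb and C1qc went with the oligodendrocyte genes at 0.37, 0.32 and 0.30 (0.0067, 0.015 and 0.024), falling to 0.20, 0.26 and 0.24 without the 2 animals farthest from the median. For the other relations named in this paragraph the permutation p of r was 1e-05, and 3.1e-05 after adjustment over 25 relations, except for C4b with the balance (0.0045 and 0.010). By genotype, r was 0.65 in NTG and 0.35 in TG for C3 with oligodendrocytes, and 0.77 and 0.83 for Serping1 with meninges. Within the number series r ran from 0.67 to 0.85 for Serping1 with meninges, from 0.37 to 0.77 for C3 with oligodendrocytes, and from 0.17 to 0.81 for the C1q genes with microglia. The lowest of the last were in the 7 animals of the 200s.

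**Figure D4:**
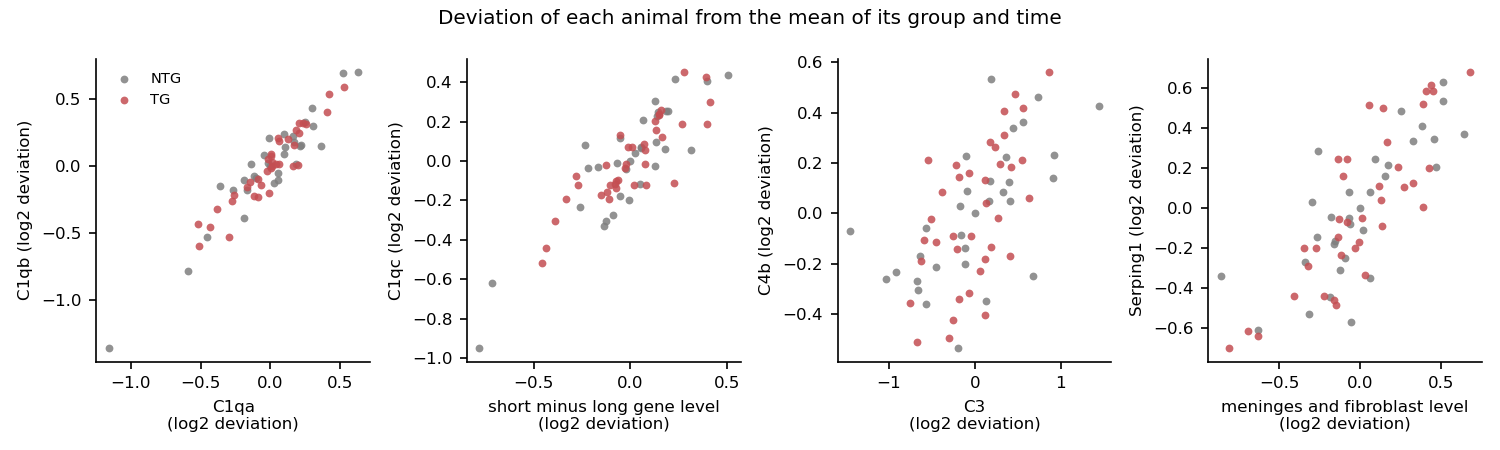
Log2 deviation of each of 69 animals from the mean of its group and time, for C1qb against C1qa, C1qc against the balance of short and long transcripts, C4b against C3 and Serping1 against the meningeal and fibroblast level, with NTG in grey and TG in red. The points rise along a line in all 4 panels (r = 0.95, 0.87, 0.60 and 0.80) in both genotypes, and the lowest point of the first 2 panels is NTG_ALF_107.

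Over all genes of the table, those most like each member in this deviation were listed by Pearson's r over the same 69 animals. For C1qa they were C1qb, C1qc, Serf2, Pebp1 and Tsen34 (r from 0.95 to 0.88), for C1qb C1qa, Pebp1, C1qc, Tsen34 and Ogfod2 (0.95 to 0.85), and for C1qc C1qa, Serf2, Chchd2, Atp6v1f and Guk1 (0.89 to 0.88). Of the 100 genes most like each C1q chain, 79 were in the shortest 20% of genes by exon length. Their median exon length was 1238, 1259 and 1127.5 bases for C1qa, C1qb and C1qc, against 3449 over all genes with a length. The C1q transcripts are themselves short, with 1040 (C1qa), 1088 (C1qb) and 1203 (C1qc) bases of exon. Of the 17 microglial genes, 1, 1 and 2 were among those 100. Each such list of 100 was drawn from the 14260 genes measured. For C3 the nearest were Pm20d1, Vim, Lpar1, Trf and Gsn (0.69 to 0.65), for C4b Stab1, Hipk4, Myh14, Vwf and Galnt6 (0.77 to 0.70), with a median exon length of 5516 bases over its 100. For Serping1 they were Slc6a20a, Slc6a13, Ogn, Islr and Aldh1a2 (0.76 to 0.71), and its 100 held 10 of the 15 meningeal and fibroblast genes.

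Other genes of the pathway came from a list of 61 genes by role, of which 32 were measured. They were 4 of 7 further classical genes, 2 of 9 lectin genes, 2 of 3 alternative genes, none of 7 terminal genes, 14 of 21 regulators and 10 of 14 receptors. None passed in TG against NTG over both feedings, in limma or with voom weights. There 15 had values above 0 and 17 below, with a median of -0.01 (0.00 over all genes). Of the 32, 3 had an unadjusted p under 0.05 in limma, beside 1157 of all 14260 genes. The smallest p belonged to the phagocytic receptor Megf10 (-0.12 ± 0.05), Cd93 (-0.19 ± 0.08), the classical protease C2 (0.23 ± 0.11) and vitronectin Vtn (0.11 ± 0.06). On ALF they were the decay factor Cd55 (0.30 ± 0.13), C1ra (0.32 ± 0.16) and Vtn (0.14 ± 0.08). On TRF they were Cd93 (-0.30 ± 0.12), Lrp1 (-0.21 ± 0.10), Itgam, a chain of complement receptor CR3 (-0.14 ± 0.07), and Megf10 (-0.14 ± 0.07). None passed on either feeding or in the interaction, in limma or with voom weights, and 1 on ALF, 3 on TRF and 1 in the interaction had an unadjusted p under 0.05 in limma. Of all 14260 genes, 1041 had such a p on ALF, 989 on TRF and 745 in the interaction. In the interaction Cd55 (-0.43 ± 0.19), Lrp1 (-0.24 ± 0.14), C1ra (-0.36 ± 0.23) and the terminal-pathway inhibitor Cd59a (-0.48 ± 0.31) had the smallest p.

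With feeding, 1 pathway gene fell and 1 rose over both genotypes, 2 of 32 beside 1.68% of all genes in limma. Cd93, a receptor of endothelial and myeloid cells once described as a C1q receptor, ran from 143 through 274 to 461 normalized counts on ALF and from 81.0 through 225 to 366 on TRF. It fell by 0.35 ± 0.08 on the log2 scale (adjusted limma p 0.0147), and in TG alone by 0.46 ± 0.11 (adjusted limma p 0.0371). Cfb, factor B of the alternative pathway, ran from 123 through 200.4 to 260 on ALF and from 167 through 230.4 to 318.7 on TRF, and rose by 0.18 ± 0.05 (adjusted limma p 0.0367). Both ranges overlap widely between feedings. Of 12 endothelial genes, 10 also had values below 0 on TRF in TG, with a median of -0.12 and 1 passing, against 6 of 12 below 0 in NTG with a median of 0.02 and over both genotypes 8 of 12 with a median of -0.05. Their summed level ran from 8419 through 12001 to 13589 normalized counts in TG on ALF and from 7017 through 10781 to 13131 in TG on TRF, and their part in the Cd93 value was not tested. When the 5 animals of lowest correlation were left out, neither passed, with -0.28 ± 0.08 for Cd93 (adjusted limma p 0.108) and 0.20 ± 0.05 for Cfb (adjusted limma p 0.0675). Leaving out 1 animal never ended the Cd93 call over both genotypes. It ended the Cd93 call in TG for TG_ALF_5, TG_ALF_16, TG_ALF_115, TG_ALF_304, TG_ALF_319, TG_ALF_332, TG_TRF_104, TG_TRF_307, TG_TRF_323 and TG_TRF_330, and the Cfb call for NTG_ALF_22, NTG_ALF_122, NTG_TRF_118, NTG_TRF_142, NTG_TRF_202, TG_ALF_310, TG_TRF_104 and TG_TRF_121, with adjusted limma p up to 0.105 and 0.0620. Next by p over both genotypes came Itgam (-0.17 ± 0.05), Megf10 (-0.16 ± 0.05), calreticulin Calr (-0.10 ± 0.04) and C1qbp (0.14 ± 0.05), none of which passed. In TG the next were Itgam (-0.24 ± 0.07), Calr (-0.13 ± 0.05), Megf10 (-0.18 ± 0.07) and Cfb (0.16 ± 0.07). In NTG none passed in limma or with voom weights, and 3 had an unadjusted p under 0.05 in limma, beside 1065 of all 14260 genes. There Cfb (0.20 ± 0.07), properdin Cfp (-0.35 ± 0.13), Cd93 (-0.25 ± 0.12) and Megf10 (-0.14 ± 0.07) had the smallest p.

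Between ZT0 and ZT12, 14 of the 32 pathway genes passed, 12 lower and 2 higher at ZT12, beside 13.6% of all genes lower and 14.4% higher in limma. The list's median was -0.13 (0.00 over all genes). Calr, a chaperone that also binds C1q, ran from 6602 through 9395 to 12147 normalized counts at ZT0 and from 5006 through 6126 to 6967 at ZT12. It fell by 0.60 ± 0.04 on the log2 scale, and the ranges overlap only between 6602 and 6967. Cd93 ran from 103.7 through 297 to 461 at ZT0 and from 81.0 through 199.9 to 258 at ZT12, and fell by 0.67 ± 0.10. C1qbp, a mitochondrial protein found as a binder of C1q, rose by 0.31 ± 0.07, from a median of 1507 to 1742 normalized counts. Susd4, a regulator of C3 activation, rose by 0.11 ± 0.03. The other 10 fell. Among the receptors these were Megf10 by 0.30 ± 0.06, the C3a receptor C3ar1 by 0.34 ± 0.11, Lrp1 by 0.32 ± 0.08, and Itgam by 0.18 ± 0.06 and Itgb2 by 0.22 ± 0.07, the chains of CR3. Among the regulators they were the neuronal pentraxins Nptx1 by 0.27 ± 0.05 and Nptx2 by 0.33 ± 0.08, Cd55 by 0.31 ± 0.11, Vtn by 0.20 ± 0.07 and Cr1l, the rodent relative of CR1, by 0.14 ± 0.05. Not past the threshold were Csmd3 (-0.17 ± 0.08), Cd46 (0.26 ± 0.12) and Cfb (-0.13 ± 0.06). Endothelial genes moved with these, 8 of 12 below 0 and 6 passing lower at ZT12 with a median of -0.22, and their part in the fall of Cd93 was not tested. No measured gene of the classical or lectin pathways passed over the 4 times, where 14 of 32 passed in all beside 35.6% of all genes, 7 receptors, 6 regulators and 1 alternative gene, the last being Cfp. Without the 5 animals 11 of the 32 passed between ZT0 and ZT12, and 4 of the calls above ended. These were Lrp1 (-0.18 ± 0.07, adjusted limma p 0.0882), Itgam (-0.11 ± 0.06, 0.186), Vtn (-0.16 ± 0.07, 0.113) and Cd55 (-0.30 ± 0.12, 0.0672). Leaving out TG_ALF_125, TG_TRF_104, TG_TRF_323, NTG_TRF_10, NTG_TRF_144 or NTG_TRF_232 alone also ended the Cd55 call (adjusted limma p up to 0.0581), and 13 to 15 genes passed without each single animal.

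**Figure D5:**
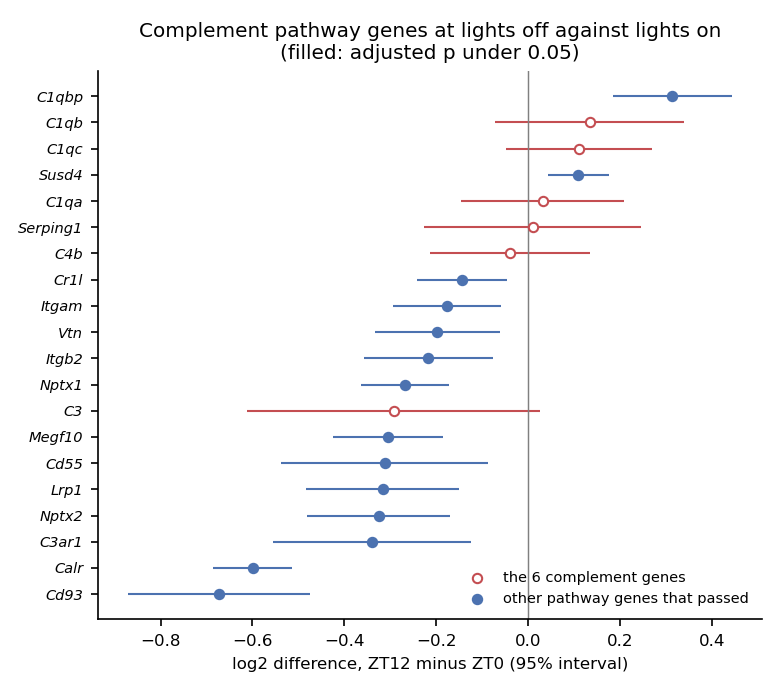
Log2 difference of ZT12 from ZT0 (points) with its 95% interval (bars) for the 6 complement genes (red) and the 14 of 32 other pathway genes that passed limma's adjusted threshold (blue, filled). The filled points are 12 genes left of 0, led by Cd93 and Calr, and 2 right of 0, C1qbp and Susd4, and all 6 red points are open, since none passed.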

How the data were processed

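Hippocampal poly-A RNA of 69 animals was sequenced as paired reads of 150 bases, trimmed with Trimmomatic on Galaxy per the labels' protocols. HISAT2, featureCounts, DESeq2 and GRCm38 are named without versions or settings, per the submitters' processing notes. The values the authors deposited are a signal of gene read counts divided by 1 size factor per library, for 14260 genes with a mean of at least 40.8. They were taken as deposited. In each of the 70 libraries the values were whole multiples of 1 step (tolerance 0.01, tested on the lower values), from which reads per library were estimated at 27.9 to 47.1 M. Libraries NTG_TRF 232 and 232R were averaged as 1 animal, since the labels do not say what R means.

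Log2(normalized count + 1) was fitted with limma 3.58.1 (R 4.3.3, trend and robust) over all 69 animals. The model had 4 group means and the time of sacrifice, or the 16 means of group and time for values at ZT0 and ZT12. P-values were adjusted by Benjamini-Hochberg over all genes, with a threshold of 0.05. Fold changes are on the log2(value + 1) scale. The fits were tested on simulated data. Correlations used the deviations from the group and time means, with 100000 permutations, 2-sided. In a set of 1 animal the deviation is 0, and in a set of 2 animals the deviations are mirror images. The permutations treated all 69 animals as exchangeable, so these p-values do not allow for that. Motifs were searched on both strands of RefSeq promoters (GRCm38.p6). Exon lengths and gene positions came from the GENCODE annotation of GRCm38.

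The members and lists were chosen with earlier results of these data known. The genes named are the 6 members, pathway genes that passed or had the 4 smallest p in a comparison, and the 5 genes most like each member; 1 pathway gene is counted but not reported here by name. Alternatives covered normalization, pseudocount, low values, voom and array weights, the time term, covariates and animals left out. The short-minus-long and oligodendrocyte covariates were chosen after seeing the data.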

Additional observations from a re-analysis of the deposited data

Results flagged for a closer look

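In 3 of the 60 sets of 4 to 7 animals of 1 group and time, 1 animal stood far from the rest by Dixon's criterion, which chance alone meets in about 1 of 20 groups. C1qc was 2291.65 normalized counts in TG_TRF_307 at ZT6, where the other 3 of 4 animals ran from 1494.23 to 1574.88. C3 was 539.346 in NTG_ALF_1 at ZT0, against 96.1013 to 263.153 in the other 6 of 7, and this animal is also among the 5 of lowest correlation. Serping1 was 541.013 in TG_TRF_24 at ZT12, against 305.843 to 343.008 in the other 4 of 5.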

How the results depend on the processing

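Over 16 alternatives, 852 values of the 6 genes were recomputed, of which 783 kept their direction or changed sign by less than 1 SE (54 of them), 33 moved, 8 newly passed with their sign kept and 28 changed sign by more, 1 of which also passed (C1qa at ZT12 with the short-minus-long covariate), so that 9 passed in all. None of the 6 genes passed in the reported fit. Genes of the 6 that passed under an alternative numbered 1 for the time of sacrifice with array weights or the meninges covariate (C3) and 2 with the microglia covariate (C1qb and C1qc). They numbered 2 for ZT12 against ZT0 with the microglia covariate (C1qb and C1qc) and 1 with the short-minus-long covariate (C1qa), 1 for TRF over both genotypes with the microglia covariate (C3), and 1 for TG over both feedings with the short-minus-long covariate (C1qc). Pathway genes passing for TRF in TG, 1 as reported, numbered 2 with equal totals, 5 with the microglia covariate and 0 with array weights, no time term, ZT0 and ZT12 animals only, without the 5 animals of lowest correlation, or the meninges, number series, short-minus-long or oligodendrocyte covariate. For TRF over both genotypes, 2 as reported, they numbered 5 with the microglia covariate and 0 with no time term, ZT0 and ZT12 only, without the 5 animals or the oligodendrocyte covariate. The cause was not tested.

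Values that changed sign were, with ZT0 and ZT12 only, the interaction of C1qb (-0.0545) and C1qc (-0.10). With array weights they were TRF over both genotypes for C1qa (-0.0683), C1qc (-0.0668) and C4b (0.0107) and ZT12 for C4b (0.0495). With the meninges covariate they were Serping1 in TG on ALF (-0.0734), in TG over both feedings (-0.0417) and on TRF in TG (0.0617). With the microglia covariate they were C1qa (-0.0026) and C1qb (-0.0551) in TG on ALF and C1qb on TRF over both genotypes (0.0802), and with the oligodendrocyte covariate C4b on TRF over both genotypes (0.0062). With the short-minus-long covariate they were TRF in TG for C1qa (-0.10), C1qb (-0.11) and C1qc (-0.11), TRF over both genotypes for C1qa (-0.0891) and C1qc (-0.0875), and ZT12 for C1qa (-0.16), C1qb (-0.0793) and C1qc (-0.0721). Leaving those 5 animals out, they were TRF over both genotypes for C1qa (-0.0874) and C1qc (-0.0883), TRF in NTG for C1qc (-0.13), and ZT12 for C1qa (-0.13), C1qb (-0.0459), C1qc (-0.0421) and C4b (0.0497).

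Leaving out each animal in turn gave 0 to 1 of the 6 genes for the time of sacrifice (C3, without NTG_ALF_328 or NTG_TRF_118) and 0 to 0 in the other comparisons. For pathway genes it gave 0 to 3 for TRF in TG, 1 to 4 for TRF over both genotypes, 13 to 15 for ZT12 and 13 to 16 for time. Genes passing in the whole table ranged over the alternatives from 20 to 94 (TG on ALF, 27 as reported), 12 to 40 (TG on TRF, 19), 34 to 143 (TG over both feedings, 64), 0 to 10 (TRF in NTG, 4), 0 to 1605 (TRF in TG, 77), 30 to 2191 (TRF over both genotypes, 239), 2457 to 5416 (ZT12, 3985) and 3474 to 6462 (time, 5073). No paired analysis was possible because animals of different groups share no replicate numbers that mark a pair. Values at ZT6 and ZT18 rest on 1 to 4 animals a group, and C3, at 49 to 539 reads a library, is the least precise of the 6.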
